A study of Mus musculus with 16 samples.

Results

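The genes described here are 9 members of the interleukin-1 (IL-1) family system, 3 ligands (Il1a, Il1b and Il18), 3 secreted or membrane-bound inhibitors (Il1rn, Il18bp and Il1r2) and 3 receptor chains (Il1r1, Il1rl1 and Il1rap), chosen by their symbol among the 22287 genes of the deposited table. All 9 were among the 12514 genes tested. Il1r2 passed the expression filter through its GM libraries alone, as its M libraries held 0 to 10 counts each. They were followed in bone marrow-derived macrophages (BMDMs) of C57BL/6J mice aged 8 weeks, grown for 7 days with GM-CSF (GM) or M-CSF (M), the growth factors that drive granulocyte-macrophage and macrophage differentiation, on tissue culture-treated (TC) or non-treated (noTC) dishes. Cells were harvested at steady state or after 3 h of lipopolysaccharide (LPS), the bacterial ligand of TLR4. The labels name no genetic modification, and the 8 groups, GM-TC and M-TC, GM-noTC and M-noTC, and the same cultures with LPS (GM-TC-LPS, M-TC-LPS, GM-noTC-LPS and M-noTC-LPS), had 2 libraries each, 16 in all. The labels do not say whether the 2 libraries of a group came from different mice, so the p-values below measure the spread between these libraries.

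IL-1 alpha and IL-1 beta signal through the same receptor, a pair of IL-1R1 and its co-receptor IL-1RAP, and switch on MyD88, IRAK kinases and NF-kB. IL-1 beta and IL-18 are made as inactive precursors that inflammasome caspases cleave, so their mRNA is no measure of secreted cytokine. The system is checked at several levels, by the receptor antagonist IL-1RN that occupies IL-1R1 without signalling, by the decoy receptor IL-1R2 that binds IL-1 without a signalling domain, and by IL-18BP that sequesters IL-18. IL1RL1 (ST2) is the receptor of the alarmin IL-33 and shares IL-1RAP.

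Total expected counts per library ran from 17527802 to 31458363. Levels are given as CPM, the counts relative to a library size scaled by the trimmed mean of M-values (TMM), and each comparison was tested with edgeR's quasi-likelihood test with Benjamini-Hochberg adjustment over all 12514 genes. A gene is called higher or lower at an adjusted p under 0.05, and fitted log2 changes are given ± SE (2 libraries a group). Macrophage markers summed to between 20528 and 47796 CPM in every library, and Cd3e was at 0 in all 16. The macrophage sum was mostly Lyz2, at 35480 CPM on average in GM-TC and 19350 CPM in M-TC. Itgam and Mertk were also higher in GM-TC than in M-TC, whereas Adgre1, Csf1r, Cd68, Fcgr1 and Cd14 were lower. Heart muscle genes summed to 21.1 to 60.1 CPM in GM-TC and M-TC without LPS and to at most 1.48 CPM elsewhere. The mRNA was measured in whole cultures, in which fewer cells of a type and less RNA per cell cannot be told apart.

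Il1a, Il1b and Il1rn lie on chromosome 2 and, as described below, all rose upon LPS in the 4 cultures, so the 250 bases before their start sites are shown. The sequences are RefSeq's, on mouse build GRCm38.p6, written 5′ to 3′ on the strand of the gene, Il1a at chr2:129309973-129310222 (minus strand), Il1b at chr2:129371140-129371389 (minus strand) and the most upstream of the 3 listed starts of Il1rn at chr2:24336610-24336859 (plus strand). Capitals mark the letters of a TATA box (TATAAA) or of an AP-1 motif (TGANTCA), searched on both strands.
Il1a: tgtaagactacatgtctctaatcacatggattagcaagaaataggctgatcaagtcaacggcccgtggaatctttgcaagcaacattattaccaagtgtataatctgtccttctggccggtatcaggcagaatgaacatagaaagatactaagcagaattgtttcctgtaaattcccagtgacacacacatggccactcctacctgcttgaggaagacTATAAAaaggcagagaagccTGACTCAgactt
Il1b: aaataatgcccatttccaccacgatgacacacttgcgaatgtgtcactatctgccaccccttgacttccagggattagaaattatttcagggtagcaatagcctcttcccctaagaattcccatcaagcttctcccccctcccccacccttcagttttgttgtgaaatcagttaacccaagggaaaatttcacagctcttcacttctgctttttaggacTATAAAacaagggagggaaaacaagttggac
Il1rn: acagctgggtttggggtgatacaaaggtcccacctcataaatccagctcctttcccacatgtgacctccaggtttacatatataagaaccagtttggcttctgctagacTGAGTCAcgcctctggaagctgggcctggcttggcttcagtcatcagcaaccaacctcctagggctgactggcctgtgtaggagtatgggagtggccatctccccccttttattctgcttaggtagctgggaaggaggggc
In the Il1a window a TATA box began 32 bases and an AP-1 match 12 bases before the start, and in the Il1b window a TATA box began 31 bases before it. The Il1rn window held an AP-1 match 141 bases before the start. Over the 13 windows of 300 bases, 250 before and 50 after a start, that the 9 members have, 8 members held at least 1 match to the 6 motifs searched. Beside these, Il1r1 and Il1rl1 had a C/EBP match (TTGCNNAA) at one of their starts, Il18bp had a C/EBP match, the second start of Il1r1 an NF-kB consensus match, Il18 and the third start of Il1rn a TATA box on the opposite strand, and Il1rap an interferon response element core (GAAANNGAAA). PU.1 letters (AGGAAGT) were in none of the members' windows. Of all 32817 promoter windows, 13.6% held the TATA box letters, 7.81% the AP-1, 10.8% the C/EBP, 9.35% the PU.1, 8.46% the NF-kB and 3.43% the interferon response element letters. A match describes the letters only.

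Which members does LPS change in each culture? Within 3 h, 6 of the 9, the ligands Il1a, Il1b and Il18, the inhibitors Il1rn and Il18bp and the co-receptor Il1rap, rose in all 4 cultures, whereas Il1r1 fell in all 4 and Il1rl1 fell in 3. In GM-TC 6 members were called higher and 1 lower, in a comparison in which 32.8% of all genes tested were called higher and 34.2% lower. In GM-noTC 6 were higher and 2 lower (33.6% and 34.0% of all genes), in M-TC 6 and 2 (37.6% and 36.4%), and in M-noTC 6 and 2 (36.4% and 35.9%). The members' median log2 change was 2.03 (GM-TC), 1.72 (GM-noTC), 3.69 (M-TC) and 3.33 (M-noTC), while that of all genes tested lay between -0.05 and -0.01. With scaling by library size alone the median of all genes moved to -0.53, -0.54, -0.83 and -0.73, and each of these member calls kept its direction.

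**Figure D1:**
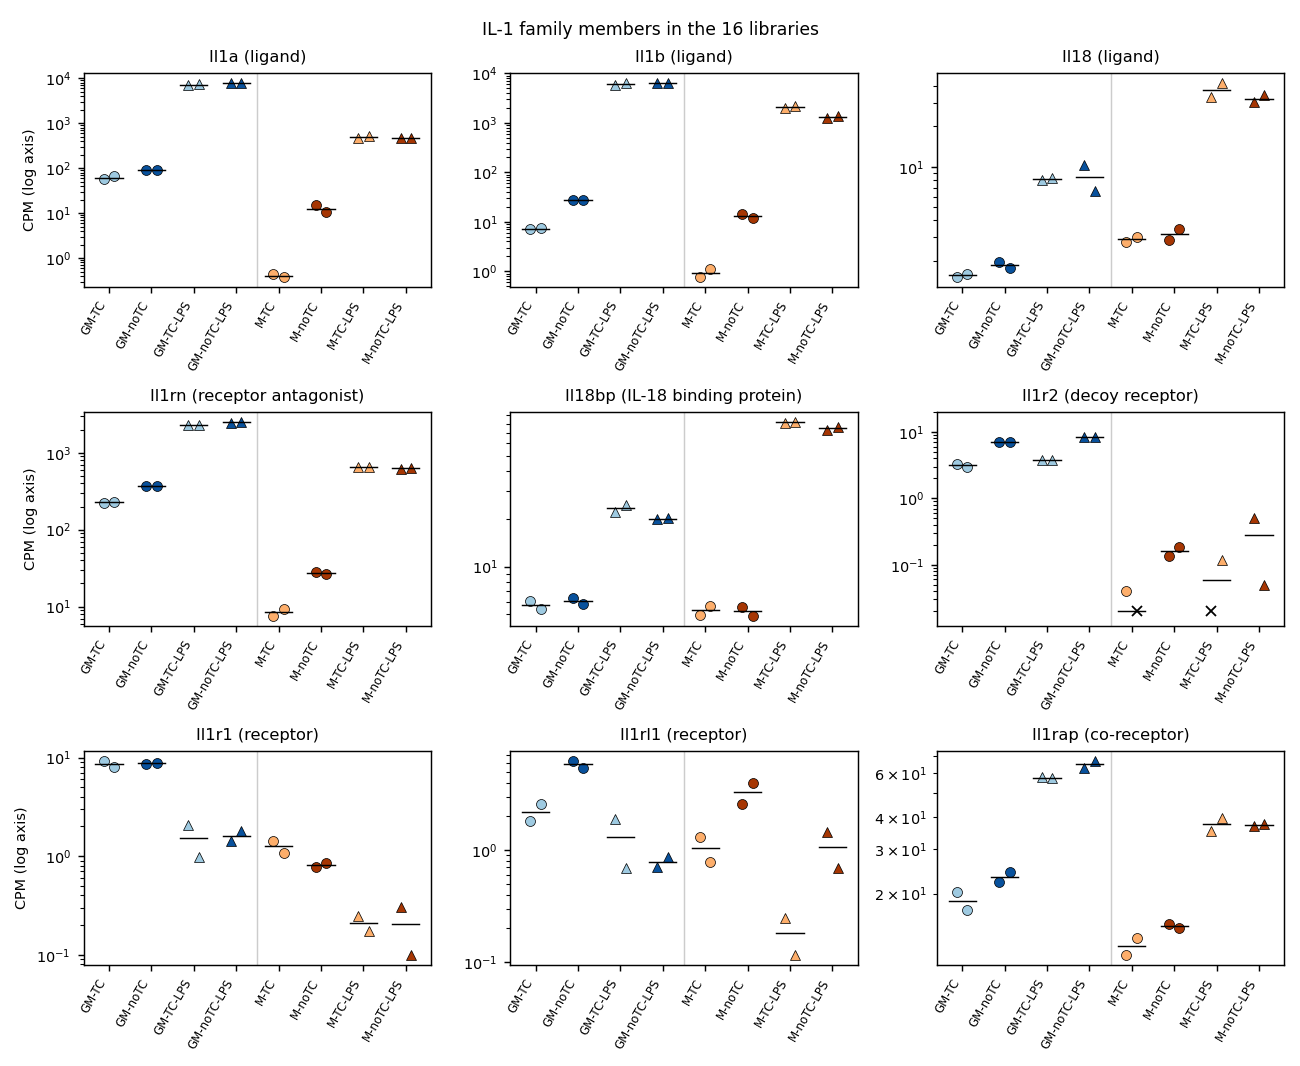
CPM of the 9 members (log axis) in each of the 16 libraries, by group. Circles are steady-state and triangles LPS libraries, blue GM and orange M, light TC and dark noTC, bars are group means and crosses stand for libraries with 0 counts. Il1a, Il1b and Il1rn were highest in the GM libraries with LPS, Il18 and Il18bp in the M libraries with LPS, and Il1r1 in the GM libraries at steady state.

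Il1a, which encodes the ligand that acts as an alarmin and is active without cleavage, was at 58.4 and 65.6 CPM in GM-TC and at 7131 and 7433 CPM after LPS. In M-TC it was at 0.439 and 0.374 CPM, 11 and 10 counts, and at 483 and 522 CPM after LPS. The M libraries with LPS thus lay above the GM libraries at steady state but below those with LPS. The log2 change was 6.87 ± 0.10 in GM-TC (adjusted p = 7.77e-24) and 10.26 ± 0.16 in M-TC (adjusted p = 2.30e-23), a fold of 117 and 1223. On noTC dishes the steady-state libraries were higher, 90.3 and 92.9 CPM in GM and 14.9 and 10.4 CPM in M, while those with LPS, 7930 and 7859 CPM in GM and 465 and 473 CPM in M, were near their TC counterparts. The log2 change there was 6.43 ± 0.09 in GM and 5.24 ± 0.10 in M. With the subtraction of reads described further below it was 6.69 ± 0.26 and 8.16 ± 0.34.

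Il1b, which encodes the ligand cleaved by caspase-1, was at 7.12 and 7.33 CPM in GM-TC and at 5945 and 6381 CPM after LPS. In M-TC it was at 0.758 and 1.12 CPM, 19 and 30 counts, and at 2007 and 2197 CPM after LPS. Its log2 change was the largest of the 9 members in each of the 4 cultures, 9.73 ± 0.09 (GM-TC), 7.86 ± 0.08 (GM-noTC), 11.11 ± 0.11 (M-TC) and 6.66 ± 0.08 (M-noTC). With the same subtraction the noTC values were 9.03 ± 0.16 in GM and 9.3 ± 0.18 in M. After LPS the GM-noTC libraries, at 6398 and 6421 CPM, were just above the GM-TC libraries without a call (adjusted p = 0.764), and the M-noTC libraries, at 1275 and 1378 CPM, were below both M-TC libraries. That last difference passed the test, a log2 change of -0.66 ± 0.06 (adjusted p = 5.22e-08).

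Il18, which encodes an inducer of interferon gamma, was present at far fewer reads, 1.51 and 1.61 CPM in GM-TC and 2.75 and 3.03 CPM in M-TC. After LPS it reached 7.96 and 8.26 CPM in GM-TC and 33.0 and 42.1 CPM in M-TC. It was the only ligand of the 3 that was higher in M than in GM, and this held on both dishes and with and without LPS. The log2 difference of M from GM was 0.88 ± 0.27 on TC (adjusted p = 0.00774) and 0.78 ± 0.24 on noTC (adjusted p = 0.00651) at steady state, and 2.2 ± 0.15 and 1.93 ± 0.15 after LPS. The noTC call at steady state was lost without GM-noTC replicate 2 (adjusted p = 0.0539) or M-noTC replicate 2 (adjusted p = 0.0758).

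Il1rn, the antagonist, was the most abundant member by CPM in the GM libraries at steady state, 224 and 232 CPM on TC and 371 and 368 CPM on noTC. LPS took it to 2263 and 2315 CPM on TC and 2443 and 2526 CPM on noTC dishes, a log2 change of 3.32 ± 0.06 and 2.75 ± 0.06. In M-TC it went from 7.54 and 9.35 CPM to 647 and 650 CPM, and in M-noTC from 28.6 and 26.2 CPM to 624 and 627 CPM, a log2 change of 6.26 ± 0.07 and 4.52 ± 0.06. The counts do not separate its secreted and intracellular forms.

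Like Il18, Il18bp, whose product binds IL-18, rose upon LPS more in M than in GM. At steady state, where Il18 was higher in M, Il18bp was not called between M and GM on either dish. It was at 4.88 to 6.36 CPM in all 8 steady-state libraries, at 20.1 to 24.6 CPM in the GM libraries with LPS and at 73.2 to 82.1 CPM in the M libraries with LPS. The log2 change upon LPS was 2.03 ± 0.10 on TC and 1.72 ± 0.10 on noTC dishes in GM, and 3.93 ± 0.09 and 3.84 ± 0.09 in M. Over the 16 libraries, which share the LPS treatment as their main difference, Pearson's r of log2 CPM was 0.97 between Il18bp and Il18, against 0.62 between Il18bp and Il1a and 0.81 between Il18bp and Il1b.

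Il1r2, the decoy receptor, was the one member with no LPS call in any culture, and almost all its reads were in GM libraries. It had 66 and 74 counts in GM-TC (3.33 and 2.98 CPM), 171 and 192 in GM-noTC (6.97 and 7.09 CPM) and after LPS 74 and 81 on TC and 179 and 185 on noTC. The 8 M libraries held 0 to 10 counts each, with 10 in M-noTC-LPS replicate 1 and 1 in its replicate 2. Per count and library size, GM-TC was 162-fold above M-TC (95% exact interval of the count ratio 28.7 to 6462, counting error only) and GM-noTC 42.6-fold above M-noTC (24.1 to 83.3). In GM the log2 change upon LPS was 0.27 ± 0.25 on TC and 0.27 ± 0.20 on noTC, neither called, and it turned to -0.21 and -0.24 with scaling by library size alone. The noTC libraries were above the TC libraries with and without LPS, as described below.

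Il1r1, the signalling receptor of both IL-1 ligands, was at 9.29 and 8.01 CPM in GM-TC and at 2.07 and 0.975 CPM after LPS, with 8.68 and 8.72 CPM in GM-noTC and 1.42 and 1.78 CPM after LPS. The log2 change was -2.52 ± 0.25 on TC and -2.44 ± 0.24 on noTC. In M it was low throughout. The 2 M-TC libraries held 65 counts at steady state and 8 after LPS, a count ratio of 5.89 (95% exact interval 2.82 to 14.2), and the M-noTC libraries 60 and 8, a ratio of 4.08 (1.94 to 9.87). Both M changes were called lower (adjusted p = 0.000106 and 0.0017).

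Il1rl1, the IL-33 receptor chain, fell upon LPS in GM-noTC from 6.28 and 5.43 CPM to 0.711 and 0.867 CPM, a log2 change of -2.88 ± 0.37 (adjusted p = 4.44e-07). It fell by 1.64 ± 0.37 on the log2 scale in M-noTC, from 2.56 and 3.97 CPM to 1.44 and 0.698 CPM. In M-TC the 2 libraries held 54 counts at steady state and 7 after LPS, a ratio of 5.59 (95% exact interval 2.54 to 14.6). GM-TC was not called, with 1.82 and 2.58 CPM at steady state and 1.91 and 0.696 CPM after LPS, a log2 change of -0.79 ± 0.39 (adjusted p = 0.0769). It was called with scaling by library size alone, at -1.27 (adjusted p = 0.00539), with no expression filter (adjusted p = 0.0165), without GM-TC replicate 1, at -0.99 (adjusted p = 0.0411), and without GM-TC-LPS replicate 1, at -1.67 (adjusted p = 0.00638). That last library also had the higher Il1r1 level of its pair, 2.07 against 0.975 CPM. The counts do not separate the membrane and soluble forms of ST2.

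Il1rl1 is also a marker of mast cells, basophils and type 2 innate lymphoid cells. The summed mast cell and basophil markers were at 21.6 to 35.3 CPM in GM and 3.31 to 8.25 CPM in M, mostly Kit, with Mcpt4 and Tpsab1 at 0 in all 16 libraries and Cpa3 at 0.524 and 0.511 CPM on average in GM-TC and GM-noTC. The sum was 35.3 and 30.9 CPM in the GM-TC libraries and 24.2 and 24.7 CPM in the GM-noTC libraries. Of it, Kit was at 29.8 and 18.3 CPM on average in GM-TC and GM-noTC and Gata2 at 2.27 and 5.15 CPM. In M-noTC 8 of these 10 markers were at 0, all but Kit and Gata2. Among lymphoid markers, Gata3 was at 0.388 and 0.450 CPM on average in GM-TC and GM-noTC. Il7r was at 408 and 381 CPM there and Thy1 at 0.554 and 0.368 CPM. The part of such cells in the Il1rl1 levels was not tested.

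Il1rap, the co-receptor shared by the IL-1 and IL-33 receptors, rose in all 4 cultures, where Il1r1 fell. It went from 20.3 and 17.2 to 57.8 and 57.2 CPM on TC and from 22.2 and 24.3 to 62.7 and 67.1 CPM on noTC in GM, and from 11.4 and 13.4 to 35.3 and 39.8 CPM and from 15.2 and 14.6 to 37.1 and 37.6 CPM in M. The log2 change was between 1.33 ± 0.09 and 1.62 ± 0.09 in the 4 cultures. Its difference between GM and M in the LPS response was not called on either dish (adjusted p = 0.871 on TC and 0.364 on noTC). With scaling by library size alone both were called, at -0.38 and -0.37 (adjusted p = 0.0205 and 0.0197).

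**Figure D2:**
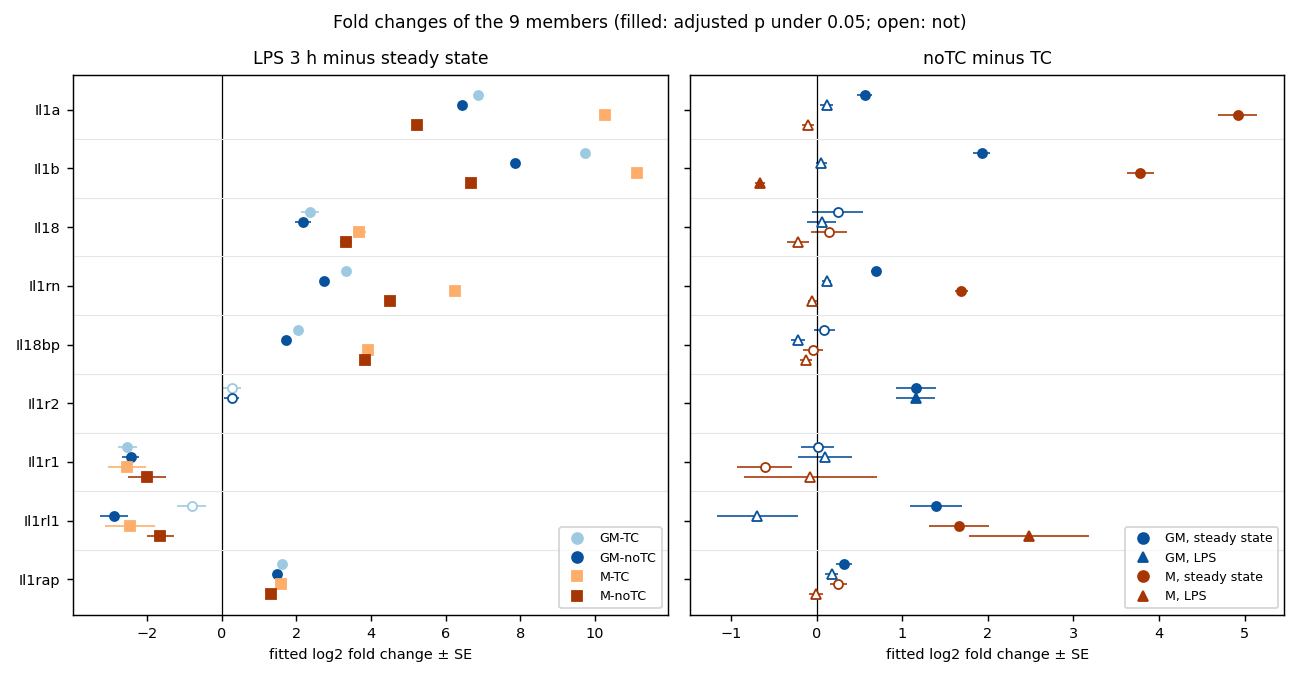
Fitted log2 fold changes with their SE for LPS against steady state (left, 4 cultures) and for noTC against TC dishes (right, GM and M with and without LPS). Filled points passed an adjusted p under 0.05 and open points did not, and Il1r2 in M is not drawn because its libraries held at most 10 counts. The points of 6 members lie right of 0 upon LPS in all 4 cultures, and Il1r1 and Il1rl1 lie left of it.

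How do the growth factors differ? At steady state on TC dishes 7 members were lower in M than in GM and 1, Il18, was higher, in a comparison in which 32.6% of all genes were lower and 28.9% higher, and the counts on noTC dishes were the same, 7 and 1 (31.4% and 30.7%). Il18bp was the member not called in either. Each count of members lower in M, here and after LPS, includes Il1r2, which passed the expression filter through its GM libraries alone. After LPS on TC all 9 differed, 7 lower and 2 higher (33.9% and 32.9%), Il18bp having joined Il18, and on noTC 6 were lower and 2 higher (33.5% and 32.6%), Il1rl1 being uncalled. On TC at steady state the log2 difference of M from GM was -7.24 ± 0.18 for Il1a, -2.93 ± 0.18 for Il1b and -4.75 ± 0.07 for Il1rn, and after LPS it was -3.86 ± 0.08, -1.55 ± 0.06 and -1.82 ± 0.05. Il1r1 was 6.84-fold lower in M on TC and 10.5-fold lower on noTC at steady state, and Il1rap 1.5-fold and 1.57-fold lower. The Il1rl1 difference at steady state, -1.09 ± 0.38 on TC (adjusted p = 0.0185) and -0.82 ± 0.27 on noTC (adjusted p = 0.0125), was the least firm of these. On TC it was lost without GM-TC replicate 2 (adjusted p = 0.160) or M-TC replicate 2 (0.18), on noTC without GM-noTC replicate 1 (0.0972) or M-noTC replicate 1 (0.156), and on both with DESeq2 (adjusted p = 0.0511 and 0.0817) and with scaling by library size alone (0.0807 and 0.0885).

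The summed markers of dendritic cells and of neutrophils were also higher in GM than in M. The dendritic cell markers summed to 908 to 1088 CPM in GM and 15.7 to 62.6 CPM in M, and the neutrophil markers to 13.2 to 44.8 CPM in GM and 0.337 to 2.16 CPM in M. The dendritic cell sum was mostly Itgax, at 916 CPM on average in GM-TC and 15.5 CPM in M-TC. Ccr7 (9.41 against 0.0374 CPM), Cd209a (3.06 against 0.152) and Zbtb46 (1.75 against 0.368) were also higher in GM-TC. Flt3 and Xcr1 were at most 0.217 CPM in either, and Siglech was lower in GM-TC (0.0252 against 0.176 CPM). In M-TC 5 of the 10 neutrophil markers, among them Ly6g, Mpo and Elane, were at 0. The part of such cells in the members' levels was not tested.

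The size of the LPS response was compared between growth factors by its own test, called for 41.1% of all genes on TC and 36.2% on noTC. On TC 5 members responded more in M, Il1a by a log2 difference of 3.38 ± 0.27, Il1rn by 2.93 ± 0.09, Il18bp by 1.89 ± 0.15, Il1b by 1.38 ± 0.21 and Il18 by 1.32 ± 0.33. On noTC Il18bp (2.12 ± 0.14), Il1rn (1.77 ± 0.08) and Il18 (1.15 ± 0.29) again responded more in M, but Il1a (-1.19 ± 0.12) and Il1b (-1.20 ± 0.10) less. These last directions turned when reads were subtracted from the noTC steady-state libraries, as given further below. That subtraction took off most of the M-noTC reads of both genes.

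Which members differ between the dishes? At steady state 6 members were called higher on noTC in GM, Il1b, Il1rl1, Il1r2, Il1rn, Il1a and Il1rap, and none lower, where 4.69% of all genes were higher and 2.85% lower. In M 4 were called higher, Il1a, Il1b, Il1rn and Il1rl1, and none lower (16.1% and 11.1% of all genes). The Il1a calls and the GM calls of Il1rl1 and Il1rap were lost under alternatives given below. With the subtraction of reads described there the Il1b differences shrank. After LPS fewer members were called. In GM Il1r2 was the 1 member called higher and none was lower (2.08% and 0.727% of all genes), and in M Il1rl1 was higher and Il1b lower (10.4% and 12.9%).

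At steady state Il1b was higher on noTC by 1.93 ± 0.10 in GM and 3.78 ± 0.15 in M on the log2 scale, Il1a by 0.56 ± 0.08 and 4.92 ± 0.23, and Il1rn by 0.69 ± 0.05 and 1.69 ± 0.08. In each of these comparisons both noTC libraries were above both TC libraries. The M-noTC libraries were at 14.3 and 12.1 CPM for Il1b and 14.9 and 10.4 CPM for Il1a, where the M-TC libraries had at most 1.12 CPM. The excess of M over GM in this dish difference was called for the 3 genes, Il1a 4.36 ± 0.27, Il1b 1.85 ± 0.21 and Il1rn 0.997 ± 0.10, in a test that called 11.2% of all genes. The summed dendritic cell markers were also higher in M-noTC, at 47.8 and 48.2 CPM against 17.2 and 15.7 CPM in M-TC, mostly Itgax. After LPS they were at 62.6 and 58.2 against 24.7 and 27.0 CPM. At steady state Zbtb46, Xcr1 and Siglech were lower in M-noTC than in M-TC, and Flt3, Ccr7 and Cd209a higher. Each of these was at most 0.368 CPM on average. Il7r, a lymphoid marker, was at 76.5 CPM on average in M-TC and 124 CPM in M-noTC. Their part in the dish differences was not tested.

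The dish difference of Il1r2 in GM was 1.16 ± 0.23 both at steady state and after LPS (adjusted p = 0.00211 and 0.00417), where the TC libraries with LPS were at 3.83 and 3.76 CPM and the noTC libraries at 8.48 and 8.44 CPM. The 4 GM-noTC libraries were above all 4 GM-TC libraries. The test of the difference between the 2 made no call, at -0.0039 ± 0.31 (adjusted p = 1.0). The call after LPS was lost without GM-TC-LPS replicate 1 (adjusted p = 0.0652) or replicate 2 (0.0571), with the log2 change at 1.17 and 1.15. Neutrophils carry much Il1r2, and the neutrophil markers also summed higher in GM-noTC (24.9 and 21.0 CPM) than in GM-TC (13.2 and 17.2 CPM), with 44.8 and 34.1 CPM in GM-noTC-LPS and 28.6 and 36.3 CPM in GM-TC-LPS. Their part in the Il1r2 difference was not tested.

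Il1rl1 was higher on noTC at steady state by 1.39 ± 0.30 in GM (adjusted p = 0.00523) and 1.66 ± 0.35 in M (adjusted p = 0.000916). The GM call was lost without GM-noTC replicate 1 (adjusted p = 0.0711). After LPS it was higher on noTC in M, by 2.48 ± 0.70 (adjusted p = 0.0123) on 28 and 14 counts against 5 and 2, and that call was lost without M-noTC-LPS replicate 1 (0.172), M-TC-LPS replicate 1 (0.0532) or M-TC-LPS replicate 2 (0.0984). In GM after LPS it was not called (-0.69 ± 0.47). The difference between these, 3.17 ± 0.85, was called (adjusted p = 0.0178), as was that of Il1b (-0.72 ± 0.08), in a test that called 10.6% of all genes. The Il1rl1 call was lost without GM-noTC-LPS replicate 1 (adjusted p = 0.0511), GM-TC-LPS replicate 1 (0.147), M-noTC-LPS replicate 1 (0.137), M-TC-LPS replicate 1 (0.055) or M-TC-LPS replicate 2 (0.0837). The Il1rap rise in GM at steady state, 0.32 ± 0.09 (adjusted p = 0.0359), was lost with DESeq2 (adjusted p = 0.0621), with the libraries of the comparison alone (0.204), and without GM-noTC replicate 1 (0.0771), GM-noTC replicate 2 (0.304) or GM-TC replicate 2 (0.340). The value in M was 0.26 ± 0.10 (adjusted p = 0.0546).

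The LPS response was compared between dishes by its own test, noTC minus TC. In GM the difference in response was called for Il1b (-1.87) and Il1rn (-0.58), where 0.783% of all genes were called, and in M for Il1a (-5.02), Il1b (-4.45) and Il1rn (-1.74), where 10.6% were called. Of the other members that were higher on noTC in GM at steady state, Il1a (-0.44, adjusted p = 0.0724), Il1rl1 (-2.08, adjusted p = 0.109), Il1rap (-0.14) and Il1r2 had no called difference in response. The Il1b call in GM and the Il1a call in M were lost with the subtraction of reads given next.

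These steady-state differences were set against the reads that the same genes had elsewhere in the series. In the noTC steady-state libraries, genes that were under 1 CPM in both TC libraries of that growth factor but averaged at least 100 CPM over 10 other libraries were present at a median of 0.675% of that average in GM (15 genes, 0.390% to 0.907%) and 0.587% in M (18 genes, 0.00840% to 0.845%), members left out. These 10 were the 8 libraries with LPS and the 2 noTC steady-state libraries of the other growth factor, and CPM here were taken by plain library size. In M the excess of noTC over TC was 0.651% for Il1a and 0.659% for Il1b, inside that range. In GM it was 0.898% for Il1b, inside the range, and 1.31% for Il1a, above it. For Il1rn it was 16.5% in GM and 2.48% in M, for Il1rap 14.5% and 8.78%, for Il1r2 214% and 5.38%, and for Il1rl1 287% and 163%. Members with no dish call at steady state were above the range too, Il18 at 2.38% in GM and 2.34% in M. In GM so were Il1r1 (13.5%) and Il18bp (1.26%), which were at -24.8% and -0.606% in M. A value above the range thus marks no dish difference by itself.

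**Figure D3:**
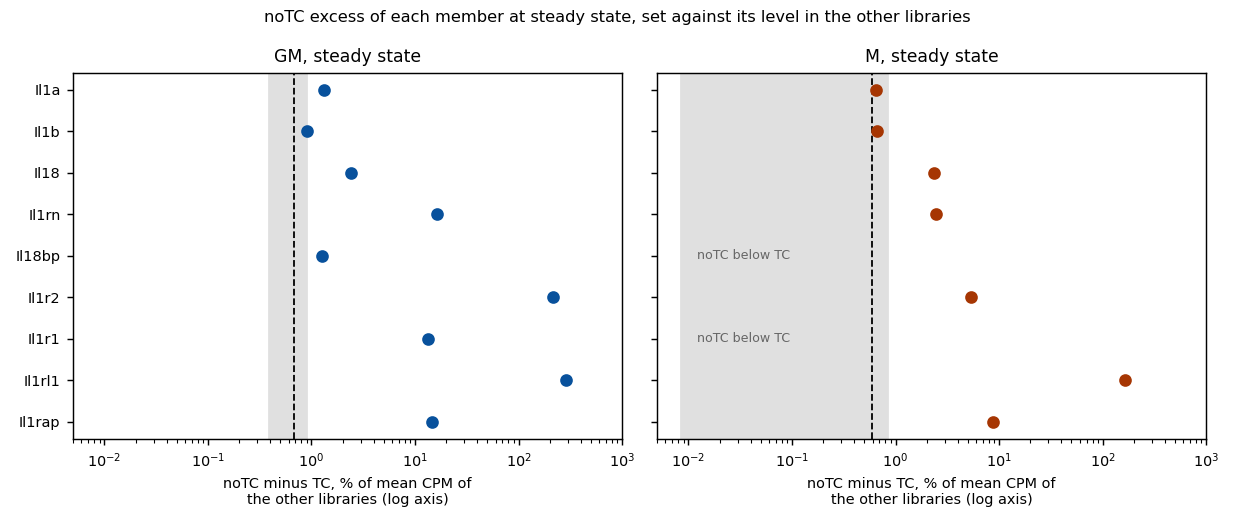
Excess of the noTC over the TC libraries at steady state for each member, as a percentage of its mean CPM in 10 other libraries, the 8 with LPS and the 2 noTC steady-state libraries of the other growth factor (log axis), with GM left and M right. The dashed line is the median of the genes nearly absent on TC dishes but abundant elsewhere, at 0.675% (GM) and 0.587% (M), and the grey band is their range. Il1a and Il1b in M lie in the band, while Il1rn, Il1rap, Il1rl1, Il1r2 and Il18 lie to the right of it in both panels. Il18 was not called between dishes in either, so a place to the right marks no dish difference by itself.

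With that median share taken off the noTC libraries without LPS, Il1b kept a smaller call in GM, 0.77 ± 0.19 (adjusted p = 0.0188), and in M, 1.15 ± 0.39 (adjusted p = 0.0333), and Il1a kept none (0.30 ± 0.23 in GM, adjusted p = 0.511, and 2.0 ± 0.96 in M, adjusted p = 0.138). The M-noTC libraries were left with 116 and 0 counts of Il1a, from 442 and 448, and with 104 and 47 of Il1b, from 425 and 519. All groups share 1 estimate of spread per gene, and the SE of both ligands rose with the subtraction. Between dishes in GM after LPS, where no reads were taken off, the SE went from 0.07 to 0.20 for Il1a. For Il1b it went from 0.06 to 0.11 there. The ligand calls that were lost thus had a larger SE as well as a smaller difference. Il1rn (0.68 ± 0.06 in GM and 1.44 ± 0.08 in M), Il1r2 in GM (1.17 ± 0.23) and Il1rl1 (1.40 ± 0.31 and 1.67 ± 0.35) were higher on noTC at nearly the size seen without it. The difference in LPS response between M and GM on noTC changed sign for both ligands, to 1.47 for Il1a (adjusted p = 0.0198) and 0.27 for Il1b (adjusted p = 0.468). The dish difference in the LPS response was -0.71 ± 0.22 for Il1b in GM (adjusted p = 0.299), -2.1 ± 0.98 for Il1a in M (adjusted p = 0.207) and -1.82 ± 0.40 for Il1b in M (adjusted p = 0.0054), while Il1rn stayed called at -0.56 ± 0.08 in GM and -1.49 ± 0.10 in M. The excess of M over GM in the dish difference at steady state was called for Il1rn (0.76 ± 0.10) but not for Il1a (1.69 ± 1.01, adjusted p = 0.343) or Il1b (0.39 ± 0.45, adjusted p = 0.678). Whether the reads came from other libraries or from the cells was not tested.

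Ratios between members were taken per kilobase of exon (union of exons in GENCODE vM21) within each library. The GM cultures had more Il1a than Il1b at steady state, with 0.126 and 0.116 Il1b per Il1a in GM-TC and 0.319 and 0.304 in GM-noTC, and nearly as much of each after LPS, 0.835 to 0.889. The M cultures had more Il1b than Il1a after LPS, with ratios of 4.3 and 4.36 on TC dishes and 2.84 and 3.02 on noTC dishes. No library of GM overlapped one of M after LPS.

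Per kilobase the antagonist was far below its 2 summed ligands after LPS. At steady state it was above them in GM and in M-TC and below them in M-noTC. These orders depend on the exon lengths used, 5535 bases for Il1rn against 1974 for Il1a and 1907 for Il1b. The lengths of the transcripts expressed were not measured. By CPM alone, M-noTC had 27.4 of Il1rn on average against 12.6 of Il1a and 13.2 of Il1b. Il1rn per summed Il1a and Il1b was 1.08 to 1.22 in the 4 GM libraries at steady state and 0.0588 to 0.0621 in the 4 with LPS, so the ligands were 16.1- to 17-fold above it. In M-TC it was 2.2 and 2.17, in M-noTC 0.343 and 0.409, and after LPS 0.0829 to 0.125. Most of the ligand reads behind the M-noTC steady-state values were taken off by the subtraction given above. The Il18bp to Il18 ratio moved little by comparison, from 0.480 to 1.37 over all 16 libraries. The Il1r2 to Il1r1 ratio in GM was 1.20 and 1.24 in GM-TC and 2.68 and 2.71 in GM-noTC, and reached 6.17 and 12.9 on TC and 19.9 and 15.8 on noTC after LPS.

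**Figure D4:**
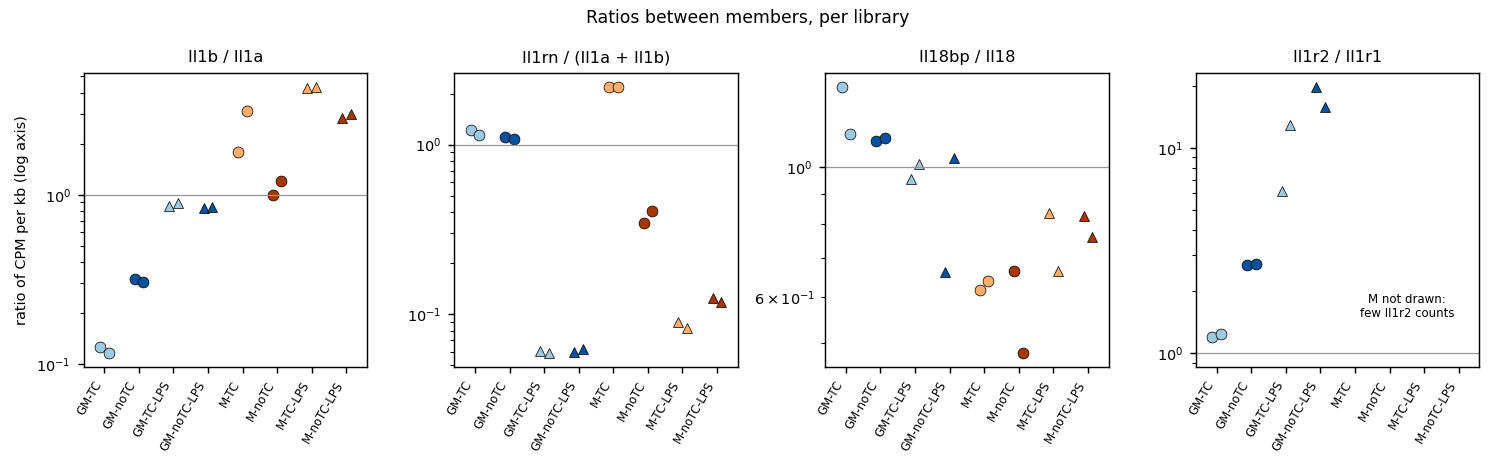
Ratios of CPM per kilobase between members in each library (log axes), circles at steady state and triangles after LPS. The antagonist ratio (second panel) drops from 1.08 to 1.22 in GM at steady state to about 0.06 after LPS, and the Il1b to Il1a ratio (first panel) is above 1 in the 4 M libraries with LPS and below 1 in all GM libraries.

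Across the 8 groups Il1a, Il1b and Il1rn had the same top 5 places by mean CPM, GM-noTC-LPS, GM-TC-LPS, M-TC-LPS, M-noTC-LPS and GM-noTC. Not all of these neighbours differed by the test. GM-noTC-LPS and GM-TC-LPS were not called apart for Il1a, Il1b or Il1rn (adjusted p = 0.544, 0.764 and 0.314). M-TC-LPS and M-noTC-LPS were called apart for Il1b but not for Il1a or Il1rn (adjusted p = 0.380 and 0.536). Il18 began with M-TC-LPS and M-noTC-LPS, which overlapped. Il1r1 began with GM-noTC and GM-TC, which overlapped, and Il1rl1 with GM-noTC, whose libraries were above all others.

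Of the 12 further IL-1 family genes listed, 7 were tested and Il36b, Il36rn, Il1f10, Il1rapl1 and Il1rapl2 had no count. Il36g (Il1f9 in the table), an epithelial and myeloid IL-36 ligand, was at 18.8 CPM on average in GM-TC and 78.4 CPM after LPS, against 0.212 and 3.82 CPM in M-TC. Il1rl2, the IL-36 receptor, was at 57.2 and 59.1 CPM in GM-TC and GM-noTC and 27.6 and 28.7 CPM after LPS, against at most 1.3 CPM on average in any M group. Il33, the ligand of ST2, was at 0.338 CPM in GM-TC and 6.06 CPM after LPS. Il36a (Il1f6) was at 0 in GM-TC and 2.73 CPM after LPS. Sigirr, an inhibitory receptor, was at 1.47 and 0.491 CPM in GM-TC without and with LPS. Il18rap, the co-receptor for IL-18, was higher on noTC in GM (log2 0.96 ± 0.15) and M (1.21 ± 0.14) at steady state and in M after LPS (0.86 ± 0.12), whereas its partner Il18r1 stayed at or below 1.33 CPM on average in every group. Beside it, Il36g was lower on noTC in GM at steady state (-0.52 ± 0.10, adjusted p = 0.00126), Il1rl2 was higher in M at steady state (0.91 ± 0.24) and after LPS (1.09 ± 0.38), and Sigirr was higher in M at steady state (0.88 ± 0.32).

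Of 29 genes of IL-1 processing and signalling, all tested, LPS raised 22 and lowered 5 in GM and raised 21 and lowered 6 in M, on either dish. Their median log2 change was 0.92 (GM-TC), 0.90 (GM-noTC), 1.16 (M-TC) and 1.14 (M-noTC), where 32.8% to 37.6% of all genes were higher and 34.0% to 36.4% lower and the median of all genes lay between -0.05 and -0.01. The 18 that rose in all 4 were led by Nfkbiz (mean log2 change 5.79), an atypical NF-kB cofactor, Ripk2 (4.07), a kinase downstream of NOD receptors, Nfkbia (3.87), the NF-kB inhibitor, and Casp4 (3.66), the intracellular LPS sensor. The 4 that fell in all 4 were Nlrp1b (-2.95), an inflammasome sensor, Tab1 (-1.19), a partner of the kinase TAK1, and the receptor-proximal kinases Irak4 (-0.60) and Irak1 (-0.18).

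Between dishes in GM at steady state, where 4.69% of all genes were higher and 2.85% lower, Nlrp3 (0.41 ± 0.06), an inflammasome sensor, Nfkbiz (0.82 ± 0.12) and Mapk8 (0.39 ± 0.11) were higher on noTC and none of the 29 was lower. In M at steady state Nlrp1b was higher and Irak3, Irak4, Nfkbia and Nfkbiz were lower (16.1% and 11.1% of all genes). After LPS 1 gene, Casp1 (-0.30 ± 0.07), was lower in GM and none higher (0.727% and 2.08% of all genes), and in M 11 were lower and none higher, Casp4, Nlrp3, Gsdmd, Nlrc4, Myd88, Irak2, Irak3, Nfkb1, Rela, Nfkbia and Nfkbiz, by between 0.22 (Nfkbiz) and 0.73 (Irak3) on the log2 scale (12.9% and 10.4% of all genes). In M after LPS Il1b, as given above, was lower on noTC as well.

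The genes whose log2 CPM followed each member most closely over the 16 libraries, which share the growth factor, dish and LPS differences, were Pfkp (r = 0.99), Tnc and Ptx3 for Il1a, Slfn1 (0.99), Slc25a25 and Hivep3 for Il1b, and Nr4a3 (0.99), AA467197 and Cd200 for Il1rn. For Il18 they were Actr2 (0.996), Pphln1 and Trmt1l, and for Il18bp Cemip2 (0.998), Apaf1 and Lrch1. For Il1r2 they were Cldn1 (0.98), Hgfac and Vsig8, each higher in GM than M and higher on noTC than TC within GM. For Il1r1 they were Ptgs1 (0.99), Araf and Aco1, for Il1rap Vcan (0.99) and Pilrb1, and for Il1rl1, the member with the loosest match, Tex9 (0.94), Mfsd13a and Tuba4a. Among the members themselves Il1a and Il1rn had an r of 0.98, Il1a and Il1rap 0.96, and Il18 and Il1r1 -0.86.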

How the data were processed

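Libraries were sequenced on an Illumina NovaSeq instrument. The submitters' processing notes name fastp 0.18.0, Bowtie2 2.2.8, HISAT2, StringTie 1.3.1, RSEM, DESeq2 and edgeR, and the genome build is not given in the sources used here. The authors deposited a table of RSEM expected counts per gene, which were rounded to whole numbers. The 9 members were found by symbol. The members and lists were chosen with earlier results of these data known. Named beside them were all listed family genes, the pathway genes called in all 4 LPS comparisons with the largest mean change (up to 4 per direction) or called between dishes, and the 3 genes nearest to each member by r, of which 1 is not reported here.

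Genes were filtered with filterByExpr, TMM factors were computed, and the 8 groups were fitted in 1 model with edgeR 4.0.16 (R 4.3.3; common biological coefficient of variation 4.75%), with 12 comparisons of groups and 6 of differences between them. The fit was tested on simulated counts. An exact permutation test of 2 against 2 libraries cannot go below p = 0.333. The alternatives were DESeq2 1.42.0, its size factors, library size alone, no filter, only the compared libraries, a replicate block, fold above 2 with unadjusted p under 0.05, each library left out, and the subtraction given in the text. Correlations used a prior count of 2. Count ratios carry 95% exact intervals. Reads without molecular identifiers make intervals cover counting error only.

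Whether counting used strand is not given in the sources used here. In GENCODE vM21, exons of genes on the opposite strand cover 11.2% of Il1a exon bases (Gm14023), 4.86% of Il1rap (Gm20319), 2.64% of Il18bp (Numa1) and 1.31% of Il1b (Il1bos), and without strand such reads cannot be told apart.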

Additional observations from a re-analysis of the deposited data

Results flagged for a closer look

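The results given here are those in which the test of the difference between the effects in 2 groups itself passed an adjusted p under 0.05 (edgeR's quasi-likelihood test over all genes), each as a difference of log2 fold changes. No pattern is explained here. The dish difference in the LPS response, noTC minus TC, was -0.58 for Il1rn and -1.87 for Il1b in GM, and -1.74 for Il1rn, -4.45 for Il1b and -5.02 for Il1a in M. The growth factor difference in the LPS response, M minus GM, was on TC dishes 2.93 for Il1rn, 1.38 for Il1b, 3.38 for Il1a, 1.32 for Il18 and 1.89 for Il18bp. On noTC dishes it was 1.77 for Il1rn, -1.20 for Il1b, -1.19 for Il1a, 1.15 for Il18 and 2.12 for Il18bp. The growth factor difference in the dish effect at steady state was 0.997 for Il1rn, 1.85 for Il1b and 4.36 for Il1a. After LPS it was 3.17 for Il1rl1, on few counts in M, and -0.72 for Il1b. The subtraction of reads given above ended the calls of the dish difference in the LPS response of Il1b in GM (-0.71, adjusted p = 0.299) and Il1a in M (-2.1, adjusted p = 0.207), and of the growth factor difference in the steady-state dish effect of Il1a (1.69, adjusted p = 0.343) and Il1b (0.39, adjusted p = 0.678). For Il1b in M the dish difference in the LPS response was then -1.82 (adjusted p = 0.0054), and the growth factor difference in the LPS response on noTC turned to 1.47 for Il1a and 0.27 for Il1b, the latter with no call (adjusted p = 0.468). The ended calls had a larger SE with the subtraction as well as a smaller difference. The comparisons given here share libraries, so the values are not independent of each other.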

How the results depend on the processing

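Over the alternatives other than leaving out a library, 1156 values of single members kept their side of the threshold and, where called, their direction, 26 lost a call, 21 gained one and 2 changed sign. Of the values kept, 11 changed sign with no call in either fit, and 4 values for which DESeq2 gave no adjusted p are left out. With the subtraction of a share of the reads of other libraries, the difference in LPS response between M and GM on noTC turned to 1.47 for Il1a and 0.27 for Il1b, and the number of members called fell to 1 (from 2) for the dish difference in the LPS response in GM and to 1 (from 3) for the growth factor difference in the dish effect at steady state. With no expression filter the former was 4. With a fold above 2 and an unadjusted p under 0.05, 3 members (from 6) were called between dishes in GM at steady state, 5 (from 8) between M and GM on noTC at steady state and 1 (from 2) for the growth factor difference in the dish effect after LPS. The cause of the other changes was not tested. Leaving out 1 library, with the lone library of a group assumed to vary like the others, gave 0 to 1 members for the dishes in GM after LPS, 1 to 3 for those in M and 1 to 2 for the growth factor difference in the dish effect after LPS, the calls lost being those of Il1r2 and Il1rl1 given above. Of the single-member values under these omissions 833 kept their side of the threshold, 20 lost a call and 11 gained one, and no called value changed sign. Same-numbered libraries of 2 groups did not deviate together (r of -0.064 to 0.020 over 12514 genes), and a replicate block changed no call of a member. Depth limits Il1r2 and Il1r1 in M and Il1rl1 after LPS.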
